A study of Mus musculus with 4 samples.

Results

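Pancreatic endocrine cells of mice exposed to intrauterine hyperglycaemia (IHG) were set beside those of control offspring, 1 single-cell library on each side. Pure beta, alpha and delta cells were picked by their hormone transcripts alone. A cell with at least 500 genes and at most 20% mitochondrially encoded transcripts was called beta where Ins1 and Ins2 together gave at least 10% of its unique molecular identifiers (UMIs, counted transcript molecules) and Gcg, Sst and Ppy each gave under 1%. Alpha cells had at least 5% Gcg with insulin under 3% and Sst under 2%, and delta cells at least 5% Sst with insulin and Gcg each under 3%. The rule found 22021 cells among the 27690 kept in the 2 libraries, of 43205 kept in all 4 libraries of the study. These were 11054 beta, 927 alpha and 633 delta cells in the control library and 6164, 1966 and 1277 in the IHG library.

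Both libraries came from islets of male mice aged 8 weeks, which were hand-picked, cultured and dissociated with trypsin. The mothers had either a control pregnancy or a model of hyperglycaemia during pregnancy, and the offspring themselves carry no engineered allele in the labels. Not given in the sources used here are the strain, the way hyperglycaemia was produced in the mothers and the number of offspring behind each library. With 1 library per side there is no replicate and no test: intervals below cover counting error at 95% only, and a difference between these libraries cannot be told apart from a difference between their preparation. For scale, the Cre-negative library, from mice with floxed Tet2 and Tet3 but no Pdx1-Cre, was set beside the same control cells. Its beta cells differed by at least 1.5-fold in 20.7% of genes, its alpha cells in 29.3% and its delta cells in 20.1%. That library differs in genotype as well as preparation, so these shares do not measure preparation alone.

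Beta cells secrete insulin when glucose closes their potassium channels and calcium enters. Alpha cells secrete glucagon when glucose is low, and delta cells secrete somatostatin, which restrains both neighbours. Calcium and cAMP signals switch on immediate early genes such as Fos, Egr1 and Npas4 within minutes, while heat, dissociation and other stress switch on heat shock chaperones through the factor HSF1. Both programmes respond to activity in the animal and to handling of the tissue.

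The 2 libraries held 16459 and 12684 barcodes, in the order control and IHG, with 109110492 and 95818236 UMIs. IHG cells were deeper: median UMIs per cell were 5942 against 8994 in beta cells, 4089 against 6366 in alpha cells and 2837 against 4659 in delta cells. The libraries shared 246 barcodes, 1.94% of those of the IHG library. Summed over each class, the lists of beta, alpha and delta markers not used by the rule were each highest in their own class in both libraries. Levels are in CPM, the UMIs of a gene per 1000000 UMIs of the class. The 8 beta markers summed to 51940 CPM in control and 54636 CPM in IHG beta cells, but also to 10439 and 11956 CPM in delta cells. Among them Iapp, the amyloid peptide stored with insulin, stood at 46201 CPM in control and 49459 CPM in IHG beta cells. Ttr, transthyretin, an abundant alpha cell transcript, stood at 14593 and 22151 CPM in alpha cells, and Hhex, the delta cell transcription factor, at 488 and 394 CPM in delta cells. The hormone genes Ppy and Ghrl, which the rule does not limit in alpha and delta cells, were also present there. They summed to 3132 CPM in control and 3583 CPM in IHG alpha cells, and to 8609 and 5613 CPM in delta cells. Among other cell types, the 6 acinar markers summed to at most 3.3 CPM in any class. The 6 endothelial markers summed to 96.0 CPM in control and 83.8 CPM in IHG beta cells, to 219.8 and 52.1 CPM in alpha cells, and to 373 and 142 CPM in delta cells.

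The IHG library held proportionally fewer beta cells and more alpha and delta cells. Beta cells made up 70.2% (69.5 to 70.9) of kept control cells and 51.6% (50.7 to 52.5) of kept IHG cells. The alpha cell share was 5.88% (5.52 to 6.26) in control and 16.5% (15.8 to 17.1) in IHG. The delta cell share was 4.02% (3.72 to 4.34) in control and 10.7% (10.1 to 11.3) in IHG. The ratio of the shares was 0.736 for beta, 2.80 for alpha and 2.66 for delta cells. Few cells lay next to the limits: 66 control and 47 IHG beta cells had 10 to 12% insulin, and 46 and 27 cells with 8 to 10% were left out. Cells that passed a hormone minimum but were mixed were also left out, and these fell unevenly: 1121 control and 654 IHG cells for insulin, 659 and 344 for Gcg, and 618 and 253 for Sst. With mixed cells counted, alpha cells stood at 10.1% of control and 19.4% of IHG cells and delta cells at 7.94% and 12.8%, ratios of 1.92 and 1.61, while the beta ratio was 0.739. These shares carry islet picking, dissociation and capture, whose part was not tested.

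Genes were compared by the ratio of CPM summed over a class, and a gene was counted as different where it reached 20 CPM in at least 1 library and differed at least 1.5-fold. Beta cells, which held 81636171 and 59927609 UMIs in all, had the smallest share, with 31 genes higher (0.56%) and 41 lower (0.741%) in IHG of 5534 measured, 1.3% together. Alpha cells, with 4127303 and 13250882 UMIs, had 81 genes higher (1.39%) and 489 lower (8.37%) of 5841, 9.76% together. Delta cells, with 2051876 and 6373050 UMIs, had 150 higher (2.26%) and 669 lower (10.1%) of 6644, 12.3% together. All 3 percentages were below those of the Cre-negative library, which also differs in genotype, against the same control cells. The balance of higher and lower genes depended on the scaling. The hormone transcripts took a larger share of IHG cells: the median Gcg share of alpha cells was 29.3% in control and 35.2% in IHG, and the median Sst share of delta cells 18.2% and 26.9%. When hormone and mitochondrially encoded genes were left out of the totals, the counts were 70 higher and 38 lower in beta, 359 and 371 in alpha, and 665 and 401 in delta cells. Under median-of-ratios scaling they were 40 and 26, 159 and 373, and 292 and 427. The median log2 ratio of all genes was -0.06, -0.09 and -0.13 in beta, alpha and delta cells, and leaving those genes out moved it to 0.02, 0.05 and 0.08.

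**Figure D1:**
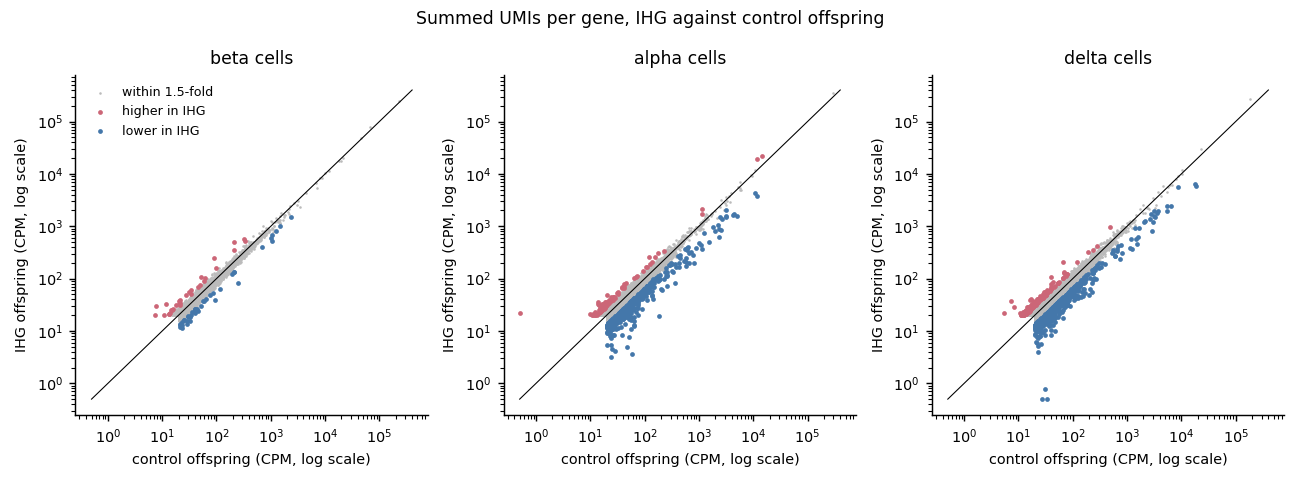
Summed level of each measured gene in control (x axis) and IHG offspring (y axis), in CPM on log scales, for beta, alpha and delta cells; coloured points differ at least 1.5-fold. Beta cell points hug the diagonal, with 72 coloured genes, while alpha and delta cells show 570 and 819, most of them below the diagonal.

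The genes that were higher in IHG beta cells included an imprinted gene, amine and GABA enzymes, and secretory and antioxidant proteins. Positions are on GRCm38. Nnat (chr2:157560078-157562522), neuronatin, an imprinted membrane protein that aids signal peptide cleavage of preproinsulin, had 7317 UMIs in control and 14948 in IHG, or 89.6 and 249 CPM, 2.78-fold higher (2.71 to 2.86). Th, tyrosine hydroxylase, the first enzyme of dopamine synthesis, was at 52.6 and 107 CPM, 2.03-fold higher (1.95 to 2.11). Gad1, which makes GABA from glutamate, was at 212 and 349 CPM, 1.64-fold higher (1.61 to 1.68). Pcsk1n, the proSAAS precursor that inhibits the prohormone convertase PC1/3, was at 320.4 and 560.1 CPM, 1.75-fold higher (1.72 to 1.78). Gpx4 (chr10:80047166-80056439), the glutathione peroxidase that removes lipid peroxides, was at 21.7 and 38.6 CPM, 1.78-fold higher (1.67 to 1.89). Stmn1, stathmin, which destabilises microtubules, went from 7.33 CPM in control to 20.3 CPM in IHG, and Fasn, fatty acid synthase, from 15.3 to 25.1 CPM. Kl, Msln and the phosphatase gene Dusp26 were 1.84-fold, 1.78-fold and 1.74-fold higher.

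Among genes that were lower in IHG beta cells, the largest difference was in Npas4 (chr19:4984355-4990316), a calcium-induced transcription factor. It had 20726 UMIs in control and 4874 in IHG, or 254 and 81.3 CPM, 3.12-fold lower (3.03 to 3.22). Lpl (chr8:68880491-68907448), lipoprotein lipase, which releases fatty acids from circulating triglyceride, was at 95.6 and 39.9 CPM, 2.40-fold lower (2.29 to 2.51). Fabp3, a cytosolic fatty acid carrier, was at 21.5 and 11.8 CPM. Mafa, the transcription factor of mature beta cells, was at 1269 and 820.2 CPM, 1.55-fold lower (1.53 to 1.56). It was the only one of 17 measured beta identity factors past 1.5-fold, in 8 of 11 alternatives. Mt2, a metallothionein that binds zinc, was at 993 and 610.0 CPM, and Ddit4, an inhibitor of mTORC1, at 116 and 62.5 CPM. The imprinted genes Kcnq1ot1, Zim1 and Nap1l5 were lower by 1.88-fold, 1.86-fold and 1.58-fold. Slc2a2, the glucose transporter, was at 721 and 648 CPM, within 1.5-fold.

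Low genes of a class can hold free RNA from other cells, whose part was not tested. Rbp4, an abundant delta and alpha cell transcript, was at 7.62 CPM in control and 29.7 CPM in IHG beta cells, while all other kept cells held 581 and 858 CPM. Gpx3 was at 11.7 and 32.9 CPM in beta cells beside 435.5 and 964.5 CPM in the other cells. Genes whose class level was under 20% of that in the other cells were left out of the naming rule. They made up 4 of the 31 genes counted higher and 4 of the 41 counted lower in beta cells. In alpha and delta cells they were 17 and 16 of the lower genes, among them Mafa, Slc2a2 and Nkx6-1, while the median insulin share of alpha cells was 0.361% in control and 0.157% in IHG.

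In alpha cells the 10 lowest ratios of the naming rule included those of the immediate early genes Egr4, Ccn1, Gem and Arc. The other 6, Esm1, Cd24a, Igfbp3, Plvap, Flt1 and Kdr, were all abundant in endothelial reference cells. Ccn1 and Arc were also high in those cells, at 914 and 480 CPM in control. The highest ratio was that of the haemoglobin gene Hbb-bs, with 94.2% of its IHG UMIs in 1 cell. Gpx4 was at 13.8 CPM in control and 36.0 CPM in IHG, 2.61-fold higher (1.98 to 3.49). Cd9, a tetraspanin, was at 19.9 and 48.2 CPM, 2.43-fold higher (1.93 to 3.09). Basp1, a membrane-bound growth cone protein, was at 121 and 256 CPM, 2.12-fold higher (1.93 to 2.33). Pcsk1n was at 1127 and 2146 CPM, 1.90-fold higher (1.85 to 1.97). Ache, acetylcholinesterase, was at 14.3 and 31.6 CPM, and Pgls, an enzyme of the pentose phosphate pathway, at 14.1 and 32.7 CPM. Ttr, transthyretin, an abundant secreted alpha cell product, was at 14593 and 22151 CPM, 1.52-fold higher (1.5 to 1.53), past 1.5-fold in 7 of 10 alternatives.

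The alpha cell gene furthest down was Egr4 (chr6:85511121-85513589), an immediate early transcription factor, with 237 UMIs in control and 48 in IHG, or 57.4 and 3.62 CPM, 15.8-fold lower (11.6 to 22.1). Ccn1, a matricellular protein of the immediate early class, was at 182 and 19.8 CPM, 9.21-fold lower (8.00 to 10.7). Arc, an activity-induced cytoskeletal protein, was at 367 and 81.4 CPM, 4.51-fold lower (4.17 to 4.88). Irs2, the insulin receptor substrate that cAMP and calcium induce in islets, was at 338 and 132 CPM, 2.56-fold lower (2.38 to 2.75). Txnip, a glucose-induced thioredoxin inhibitor, was at 450.4 and 243 CPM, and the endoplasmic reticulum chaperone Hspa5 at 1986 and 818 CPM. Among 21 measured genes of lipid uptake and synthesis none was higher and 10 were lower, beside 8.37% of all genes, with a median log2 ratio of -0.38 beside -0.09 for all genes (-0.24 beside 0.05 without hormone and mitochondrially encoded genes in the totals). These included Hmgcs1 (43.4 and 22.1 CPM) of cholesterol synthesis and Insig1 (66.1 and 34.3 CPM), which retains the sterol sensor SCAP. Of the 21 measured, 2 were prone to free RNA by the 20% limit above. In the insulin, IGF and mTOR list 7 of 23 were lower and none higher, with a median of -0.38.

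Genes abundant in endothelial cells stood apart in alpha cells by how few cells held them. Esm1 was at 47.7 CPM in control and 4.98 CPM in IHG alpha cells, Plvap at 64.7 and 12.6 CPM, and Kdr at 62.5 and 13.1 CPM. A single control cell held 28.4% of the Esm1, 33.3% of the Plvap and 38.4% of the Kdr UMIs. Cells with any UMI of the 6 endothelial markers made up 10.6% of control and 12.3% of IHG alpha cells. Without them 94 genes were higher and 462 lower in alpha cells, and 158 and 714 in delta cells.

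Delta cells had the largest share of differing genes. Dlk1 (chr12:109452823-109463336), an imprinted membrane-bound ligand related to the Notch ligands, had 133 UMIs in control and 1330 in IHG, or 64.8 and 209 CPM, 3.22-fold higher (2.69 to 3.88). Ndufa4, a subunit of the respiratory chain, was at 39.0 and 109.5 CPM, 2.81-fold higher (2.23 to 3.59). Gpx4 was at 16.1 and 38.9 CPM, 2.42-fold higher (1.68 to 3.59), and Pcsk1n at 491 and 949.6 CPM, 1.93-fold higher (1.81 to 2.07). Aldoc, an aldolase of glycolysis, was at 17.1 and 40.3 CPM, and Fads1, a fatty acid desaturase, at 10.7 and 22 CPM. Th was at 14.6 and 29.2 CPM, 2.00-fold higher (1.35 to 3.04), so that it passed 1.5-fold in beta and delta cells, while alpha cells had 2.42 and 1.36 CPM. The class II antigen genes H2-Ab1, H2-Eb1 and H2-Aa stood at the top of the delta ratios, at 5.02-fold, 4.16-fold and 3.50-fold, but 1 IHG cell held 57.7%, 56.3% and 56.8% of their UMIs.

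On the lower side of delta cells, Arc was at 229 CPM in control and 55.5 CPM in IHG, 4.12-fold lower (3.58 to 4.75), and Atf3, a stress-induced transcription factor, at 198 and 49.6 CPM, 4.00-fold lower (3.44 to 4.65). Irs2 was at 271 and 99.5 CPM, 2.72-fold lower (2.43 to 3.06), and Txnip at 662 and 343 CPM, 1.93-fold lower (1.81 to 2.07). Sgk1, a kinase downstream of insulin and stress signals, was at 28.3 and 9.42 CPM. Sox9 and Sox4, developmental transcription factors, were at 92.6 and 47.5 CPM and at 120.9 and 80.5 CPM. Sox4 passed 1.5-fold in 5 of 10 alternatives and Sox9 in 9. Of 33 imprinted genes measured, 1 was higher and 5 lower, beside 2.26% and 10.1% of all genes. Dlk1 was higher, and Kcnq1ot1 (52.1 and 27.8 CPM), Plagl1, Zdbf2 (173 and 111 CPM), Nap1l5 and the free-RNA-prone Ddc were lower.

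Some differences appeared in all 3 classes. Gpx4, Pcsk1n and Ptov1 were past 1.5-fold higher in beta, alpha and delta cells. Ptov1, a nuclear and cytoplasmic adaptor protein, was at 31.1 and 55.5 CPM in beta, 42.2 and 80.4 CPM in alpha, and 42.4 and 84.6 CPM in delta cells. Cells of another type carried part of the same pattern. In endothelial reference cells, which held at least 3 of 6 endothelial markers and under 10% insulin (1167 control and 861 IHG cells), Gpx4 was at 32.3 and 89.3 CPM, Pcsk1n at 54.5 and 139 CPM and Ptov1 at 23 and 29.8 CPM. Nnat passed 1.5-fold in beta cells but not in delta cells, where it was at 242 and 211 CPM. It was under the minimum of 20 CPM in alpha cells (4.12 and 3.25 CPM) and endothelial cells (12.8 and 11.4 CPM), so it could not be counted there. Lpl was lower in endothelial cells too, at 79.2 and 28.5 CPM, and so was Irs2, at 80.9 and 16.7 CPM.

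**Figure D2:**
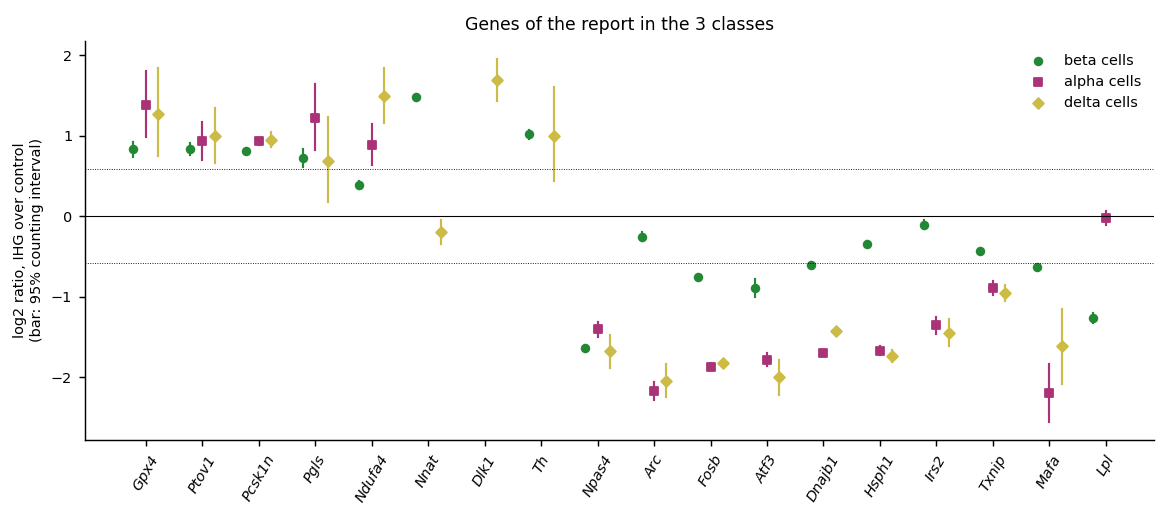
Log2 ratio of IHG over control (y axis) for 18 genes (x axis) in beta (circles), alpha (squares) and delta cells (diamonds), with bars for the 95% counting interval and dotted lines at 1.5-fold; a class where the gene did not reach 20 CPM has no point. Gpx4, Ptov1 and Pcsk1n lie above the upper line in all 3 classes, and Npas4 and Fosb below the lower line in all 3.

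Immediate early genes were lower in all 3 classes, and heat shock chaperones mainly in alpha and delta cells. Of the immediate early list, 10 of 24 measured genes were lower in beta cells and none higher, with a median log2 ratio of -0.47 beside -0.06 for all genes. In alpha cells 31 of 33 were lower (median -1.41) and in delta cells 27 of 31 (median -1.20), again with none higher. Over all genes, 0.741%, 8.37% and 10.1% were lower in beta, alpha and delta cells. Of the 24 measured in beta cells 4 were free-RNA-prone, among them Atf3, which was counted lower. Fosb, an AP-1 subunit, was at 682 and 406 CPM in beta, 2301 and 630.3 CPM in alpha, and 2887 and 816 CPM in delta cells. Npas4 was at 435 and 164 CPM in alpha and 205 and 63.9 CPM in delta cells. In the endothelial reference cells 22 of 34 were lower (median -0.96), beside 759 of all 6926 genes.

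Of 19 heat shock genes, 1 was lower in beta cells (median -0.23), 16 in alpha cells (-1.15) and 17 in delta cells (-0.94), and none was higher. The shares of all genes that were lower were 0.741%, 8.37% and 10.1%. The beta cell gene was Dnajb1, a co-chaperone of HSP70, at 1506 and 991 CPM, which passed 1.5-fold in only 4 of 11 alternatives. It was at 5050 and 1550 CPM in alpha and 6422 and 2389 CPM in delta cells. Hspa1b and Hspa1a, which encode inducible HSP70 and may share reads as near-identical copies, were at 11678 and 3860 CPM and at 10951 and 4369 CPM in alpha cells. In endothelial cells 11 of the 19 were lower (median -0.92), beside 759 of all 6926 genes. Neither list changed its direction in any class under either alternative scaling.

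**Figure D3:**
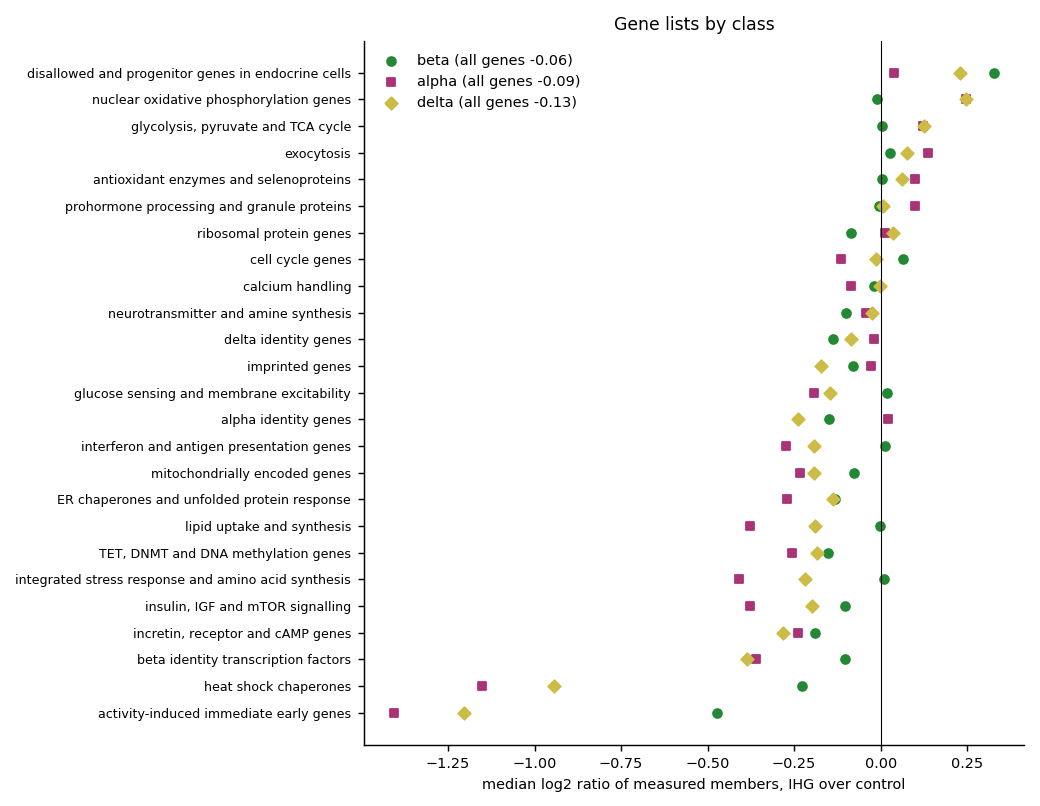
Median log2 ratio of IHG over control (x axis) of the measured members of each gene list (y axis) in beta, alpha and delta cells; the legend gives the median of all genes. Immediate early and heat shock genes lie far left, at -1.41 and -1.15 in alpha cells, while nuclear oxidative phosphorylation genes lie at 0.25 in alpha and delta cells.

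Start-site sequence gives the letters that the known regulators of these lists read. The windows below are the 250 bases before the RefSeq start on GRCm38.p6, printed 5′ to 3′ on the strand of the gene, for members whose window overlaps no annotated exon. Btg2, an anti-proliferative immediate early gene (chr1:134079156-134079405, minus strand), carries a cAMP response element, TGACGTCA, in capitals. Hspa1a (chr17:34972157-34972406, minus strand), Hspb1, a small heat shock protein (chr5:135887669-135887918, plus strand), and Jun, an AP-1 subunit (chr4:95052223-95052472, minus strand), carry paired heat shock sites, GAANNTTC or TTCNNGAA, in capitals.
Btg2: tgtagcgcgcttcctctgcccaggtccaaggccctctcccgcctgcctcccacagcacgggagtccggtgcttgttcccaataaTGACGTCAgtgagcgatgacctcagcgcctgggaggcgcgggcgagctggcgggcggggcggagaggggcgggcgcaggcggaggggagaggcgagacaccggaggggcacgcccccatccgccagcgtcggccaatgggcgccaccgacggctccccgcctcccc
Hspa1a: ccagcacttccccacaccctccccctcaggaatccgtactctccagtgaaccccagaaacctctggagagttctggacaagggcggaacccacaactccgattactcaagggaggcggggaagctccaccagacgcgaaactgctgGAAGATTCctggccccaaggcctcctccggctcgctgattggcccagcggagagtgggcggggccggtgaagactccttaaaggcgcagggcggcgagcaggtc
Hspb1: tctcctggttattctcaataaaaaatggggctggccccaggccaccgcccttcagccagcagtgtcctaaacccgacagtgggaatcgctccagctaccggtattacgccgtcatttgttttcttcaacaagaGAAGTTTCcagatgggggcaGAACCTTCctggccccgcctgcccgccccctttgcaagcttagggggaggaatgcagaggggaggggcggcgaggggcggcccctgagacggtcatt
Jun: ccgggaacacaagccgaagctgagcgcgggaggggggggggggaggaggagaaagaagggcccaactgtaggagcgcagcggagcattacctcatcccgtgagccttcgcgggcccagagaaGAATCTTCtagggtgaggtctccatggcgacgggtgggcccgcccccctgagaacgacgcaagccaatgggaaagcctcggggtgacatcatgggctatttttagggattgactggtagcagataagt
The Btg2 element starts 166 bases before the start, those of Hspb1 117 and 97 bases before, that of Hspa1a 104 and that of Jun 128. The window of Hspa1b is identical to that of Hspa1a at 247 of 250 bases. On either strand, TGACGTCA was in 4 of 32 windows of the immediate early list (12.5%) and in 1.55% of all 32851 windows. A paired site was in 9 of 22 windows of the heat shock list (40.9%), 3 of 32 of the immediate early list (9.38%) and 12.8% of all. The longer heat shock element, GAANNTTCNNGAA or TTCNNGAANNTTC, which contains the paired site, was in 2 of 22 heat shock windows (9.09%) and 0.466% of all. RefSeq windows were found for 25 of 36 immediate early and 16 of 19 heat shock genes.

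By heat shock share, endocrine cells of the IHG library fell into a low and a high range, where those of the control library formed mainly 1 mode. IHG endothelial reference cells also formed 1 mode. Among bins of unequal width, their fullest was from 0.5 to 0.75%, with 22.5% of cells. In control the fullest was the wider bin from 2 to 3% (29.2%), beside 16.8% of cells from 1.5 to 2%. In IHG beta cells the share of UMIs from the heat shock list was under 0.5% in 44.6% of cells, between 0.5 and 1% in 9.85%, and from 1.5 to 3% in 29.8%. Limits were set in the gaps, after the data were seen, at 0.75% for beta, 1.5% for alpha and 2% for delta cells. Below the limit lay 3089 IHG beta cells, 50.1% (48.9 to 51.4), and 2010 control beta cells, 18.2% (17.5 to 18.9). In alpha cells the share below it was 58.2% (56.0 to 60.4) for IHG and 3.02% (2.02 to 4.34) for control, and in delta cells 65.0% (62.3 to 67.6) and 6.64% (4.82 to 8.86). These are ranges of a score, not cell types. Within 10% of the limit lay 158 IHG beta, 74 IHG alpha and 13 IHG delta cells, and 1149, 13 and 10 control cells.

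**Figure D4:**
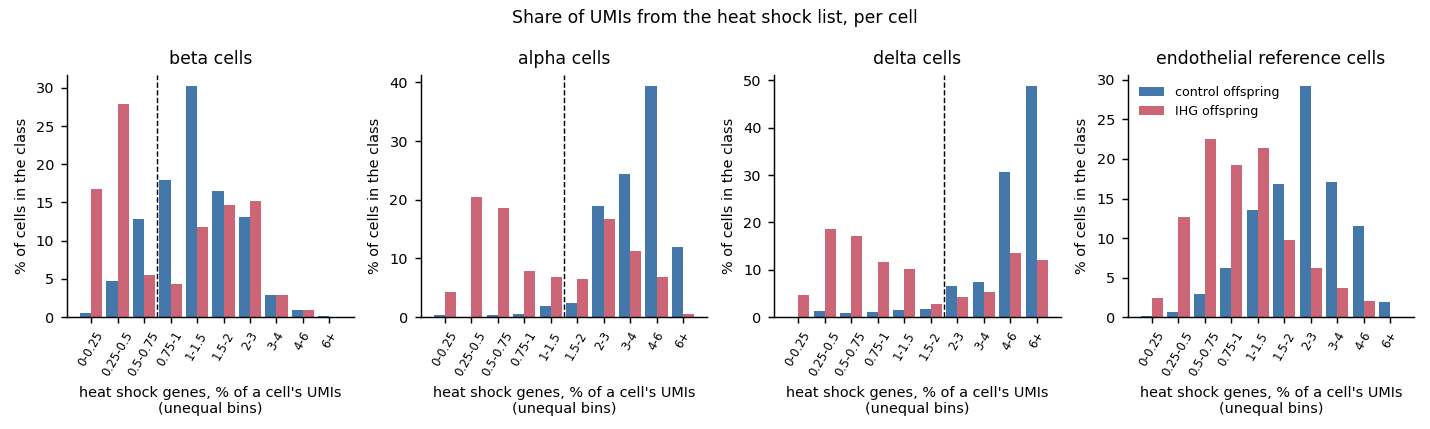
Share of a cell's UMIs from the 19 heat shock genes (x axis, unequal bins) against the percentage of cells in the class (y axis), for control (blue) and IHG offspring (red), in beta, alpha, delta and endothelial reference cells; dashed lines mark the limits. IHG beta cells form a low and a high mode with 4.30% of cells in the bin from 0.75 to 1%, whereas control beta cells form 1 mode.

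Cells in the low and high ranges of the IHG library had similar depth and purity. Median UMIs were 9252 in the low and 8780 in the high range of beta cells, 6415 and 6314 in alpha cells, and 4640 and 4682 in delta cells. The median mitochondrially encoded share of beta cells was 8.80% and 7.93%, and the median insulin share 30.7% and 29.4%. In alpha cells the median insulin share was 0.154% and 0.160%, and in delta cells 0.183% and 0.182%. Gcg gave a median 37.6% of alpha cell UMIs in the low and 32.4% in the high range, and Sst 29.1% and 22.6% of delta cell UMIs. The immediate early share moved with the heat shock share, with medians of 0.133% and 1.02% in beta, 0.453% and 1.29% in alpha, and 0.448% and 1.92% in delta cells. Whether the ranges come from separate animals, tubes or handling times was not tested, since the barcodes carry no such label.

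Between the low and high ranges of the IHG library, outside the heat shock list, 74 genes were higher (1.34%) and 234 lower (4.24%) in low beta cells, 5.59% of 5514 together. In alpha cells 33 were higher (0.576%) and 562 lower (9.81%), 10.4% of 5729. In delta cells 136 were higher (2.08%) and 639 lower (9.76%), 11.8% of 6545. Those higher in low beta cells were led by Stmn1, at 35.1 CPM in the low and 4.54 CPM in the high range. Msln, a surface glycoprotein, was at 88.2 and 30.5 CPM, Fasn at 36.3 and 13.3 CPM, and the receptor tyrosine kinase Ret at 69.1 and 25.4 CPM. Pcx, pyruvate carboxylase, which refills the citric acid cycle, was at 86.5 and 37.9 CPM, and Ndufa4 at 138 and 63.2 CPM. Those lower were led by Rnd3, an atypical small GTPase, at 0.811 and 24.2 CPM, Fosb at 40.9 and 792 CPM, and Klf6, a zinc finger factor, at 32.3 and 386 CPM. Ndufa4 also led in low alpha cells (94.6 and 34.1 CPM) and in low delta cells (143 and 46.4 CPM).

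The ranges separate the beta cell genes into some that differed between the libraries in both ranges and some that did not. Pcsk1n was at 319 and 321 CPM in the low and high ranges of control beta cells and at 558 and 562 CPM in those of IHG. Gpx4 was at 20.9 and 21.9 CPM in control and 37.7 and 39.6 CPM in IHG, and Kl at 19.7 and 20.6 CPM in control and 39.3 and 36.1 CPM in IHG. Lpl was at 89.4 and 96.8 CPM in control and 39.6 and 40.1 CPM in IHG. These 4 genes differed little with the heat shock share inside either library. The ranges are not matched between libraries: the median heat shock share of beta cells was 0.591% in control and 0.295% in IHG in the low range, and 1.35% and 1.80% in the high range.

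Nnat followed both, at 82.3 and 91.1 CPM in control and at 350.3 CPM in the low and 143 CPM in the high range of IHG. Its ratio was 4.26-fold in the low range and 1.57-fold (1.5 to 1.63) in the high range. Npas4 was 7.40-fold lower in the low range, at 134 and 18.1 CPM, and 1.87-fold lower in the high range, at 277 and 148 CPM. Mafa was at 1427 and 733 CPM in the low ranges of control and IHG and at 1238 and 913 CPM in the high ranges. Stmn1, at 5.43 and 4.54 CPM, and Msln, at 33.4 and 30.5 CPM in control and IHG, were not higher in the IHG high range. Egr1, at 1129 and 1155 CPM, was not lower there, where the median immediate early share was 0.755% in control and 1.02% in IHG. Dnajb1, at 1699 and 1864 CPM there, belongs to the heat shock list that sets the ranges, so its ratio follows partly from that selection.

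**Figure D5:**
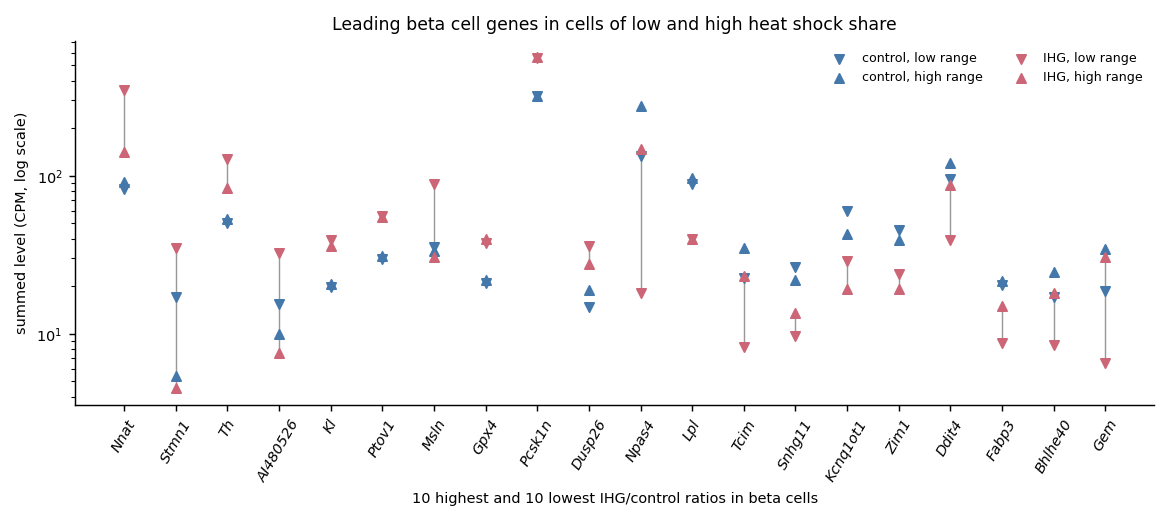
Summed level (y axis, CPM, log scale) of the 10 highest and 10 lowest genes by ratio in beta cells (x axis), in the low (downward triangles) and high (upward triangles) heat shock ranges of control (blue) and IHG offspring (red); grey lines join the IHG ranges. The red triangles of Nnat sit at 350.3 and 143 CPM, both above the control ones, while those of Stmn1 sit at 35.1 and 4.54 CPM.

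Restricted to cells at or above the limits, the libraries differed in fewer alpha and delta genes. Beta cells then had 49 genes higher and 22 lower, which included 17 of the 31 and 13 of the 41 counted in all cells. In alpha cells 99 were higher and 155 lower, including 43 of the 81 and 137 of the 489. In delta cells 170 were higher and 365 lower, including 71 of the 150 and 222 of the 669. Of the immediate early genes in this range, Ier2 was higher (45.0 and 79.2 CPM) and Npas4 lower in beta cells, with a median log2 ratio of 0.20 over 27 measured. In alpha cells 18 of 33 were lower and Crem, a cAMP-responsive factor, was higher (median -0.63), and in delta cells 5 of 31 were lower and Crem was higher (median -0.26). The medians of all genes in this range were -0.05 in beta, -0.03 in alpha and -0.09 in delta cells. Those 5 delta genes were Arc, Dusp1, Atf3, Gadd45b and Ppp1r15a. Arc was at 375 and 159.8 CPM in this range of alpha cells and 242 and 122 CPM in that of delta cells. Below the limit, 75 beta genes were higher and 108 lower, and 14 of 19 immediate early genes were lower (median -1.38, beside -0.04 for all genes). The control library held only 28 alpha and 42 delta cells below their limits, so that the low ranges were not compared there.

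Genes that differed in alpha and delta cells also fell on both sides of this split. As above, the high range is not matched for heat shock share between the libraries. In that range, alpha cell Basp1 was at 121 CPM in control and 258 CPM in IHG, Gpx4 at 13.7 and 39.4 CPM and Pcsk1n at 1126 and 2263 CPM. Txnip was at 453 and 291 CPM there, and Hspa5 at 2008 and 1097 CPM. Irs2 was at 342 and 251 CPM, 1.36-fold lower, where the ratio over all alpha cells was 2.56-fold. Ndufa4 was close between the libraries in the high range, at 37.8 and 34.1 CPM in alpha and 38.9 and 46.4 CPM in delta cells. Dlk1 in delta cells was at 66.8 and 90.0 CPM in the high range, 1.35-fold higher (1.07 to 1.69). It was at 272 CPM in the IHG low range, while the control low range held only 42 delta cells and was not compared.

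Nuclear genes of energy metabolism were near level or slightly higher, and mitochondrially encoded genes near level or slightly lower. Of 12 mitochondrially encoded genes measured, 1 was lower in beta, 2 in alpha and 2 in delta cells, and none higher. The shares of all genes that were lower were 0.741%, 8.37% and 10.1%. The medians of these 12 were -0.08, -0.23 and -0.19, beside -0.06, -0.09 and -0.13 for all genes. No nuclear oxidative phosphorylation gene of 73 measured differed 1.5-fold in beta cells, and their median log2 ratio of -0.01 turned to 0.05 under both other scalings. In alpha cells 68 of 71 lay above 1 and in delta cells 68 of 72, with a median of 0.25 in each. Of these, 2 were 1.5-fold higher in alpha cells (Ndufa4 and Cyc1), beside 1.39% of all genes. In delta cells 4 were higher (also Cox5a and Atp5o, each in 6 of 10 alternatives), beside 2.26% of all genes. The endothelial reference had a median of 0.27 beside 0.06 for all genes. There 7 of 72 were higher, near the share of all genes (682 of 6926). None of the 65 ribosomal protein genes passed 1.5-fold in any class in plain CPM; without hormone and mitochondrially encoded genes 1 alpha and 3 delta genes were higher. Glycolysis, pyruvate and citric acid cycle genes had medians of 0.00, 0.12 and 0.13, with Eno1, enolase, at 23.7 and 37.1 CPM in alpha and 30.7 and 54.5 CPM in delta cells.

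Lists of stimulus and secretion genes were near the share of all genes in beta cells. None of 17 measured genes of glucose sensing and excitability, and 1 of 20 incretin, receptor and cAMP genes (the free-RNA-prone Rgs4), passed 1.5-fold there, beside 1.3% of all genes. In alpha cells 6 of 17 (3 of them the free-RNA-prone Slc2a2, G6pc2 and Atp1b2) and 5 of 18 were lower, beside 8.37% of all genes, among them the calcium channel gene Cacna1c (22.8 and 14.1 CPM), the sodium channel gene Scn9a (28.6 and 17.0 CPM) and the G protein regulator Rgs4 (370.0 and 194 CPM). In delta cells 2 of 17 (Slc2a2 and G6pc2, both free-RNA-prone) and 4 of 19 were lower, beside 10.1% of all genes, with Adra2a, the alpha-2A adrenergic receptor, at 47.8 and 30.9 CPM (past 1.5-fold in 6 of 10 alternatives). Of the chaperones and sensors of the endoplasmic reticulum, none of 27 passed 1.5-fold in beta cells. In alpha cells 2 of 26, Hspa5 and Herpud1 (645 and 304 CPM), were lower, near the 8.37% of all genes. In delta cells 1 of 27 was higher (Ern1) and 1 lower (Hspa5), beside 2.26% and 10.1% of all genes.

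The study's title concerns TET enzymes, which oxidise methylated cytosine. No TET, DNMT or other DNA methylation gene of 13 measured passed 1.5-fold in beta cells, where 1.3% of all genes did, and their median log2 ratio was -0.15 beside -0.06 for all genes. Tet2 was at 40.3 CPM in control and 32.8 CPM in IHG beta cells and Tet3 at 30.5 and 26.1 CPM. In delta cells Tet3 had 111 and 214 UMIs, or 54.1 and 33.6 CPM, 1.61-fold lower (1.27 to 2.04) and past 1.5-fold in 6 of 10 alternatives, and in alpha cells it was at 16.7 and 12.1 CPM, under the minimum of 20 CPM. Gadd45a and Gadd45b, stress-induced genes linked to demethylation, were at 45.8 and 24 CPM and at 64.7 and 36.1 CPM in alpha cells, and the methyl-binding factor gene Zbtb38 at 46.8 and 27.5 CPM. In the high heat shock range delta cell Tet3 was at 54.9 and 42.3 CPM, 1.30-fold lower.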

How the data were processed

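Gene expression was measured by 3′ single-cell RNA sequencing on the SeekOne MM microwell platform, per the labels' protocols. The deposited matrices hold raw counts, whole numbers of UMIs per gene and barcode for 32285 genes, not normalized by the authors. The submitters' processing notes name Cell Ranger, Seurat and mm10 without role or version. Not given in the sources used here are the aligner, the annotation and the filter on barcodes, of which the lowest held 500 UMIs. Gene positions are from GENCODE vM21 on GRCm38, the assembly mm10 names, where 32158 identifiers were found. Whether counting used strand is not given, so overlapping genes may share reads.

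The cell filter was a minimum of 500 genes and a maximum of 20% mitochondrially encoded UMIs. Counts were summed per library and class and scaled to CPM, and ratios carry exact conditional binomial (Clopper-Pearson) 95% intervals. A count of 0 was set to 3 UMIs. No count model was fitted, since each side is 1 library. UMI counts of 1 library are not independent of its preparation, so intervals cover counting error only. Doublets were marked with Scrublet (scanpy 1.11.5, expected rate 0.06) and kept in the main values, since the hormone rule leaves out mixed endocrine cells. The automatic threshold marked 0% of control cells, so the top 6% of scores were marked there; 4.26% of control and 2.69% of IHG beta cells were marked. Calculations ran in pandas 2.3.3 and scipy 1.17.1 with numpy 2.4.6 on Python 3.11.15, figures were drawn with matplotlib 3.10.9, and the ratio script was tested on simulated data.

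Named per class were the 10 highest and 10 lowest ratios past 1.5-fold with at least 50 UMIs, leaving out the hormones of the rule, mitochondrially encoded genes, Gm and Rik gene models and free-RNA-prone genes, and list members past 1.5-fold. Genes named for the comparison of heat shock ranges, and those not past 1.5-fold, were chosen after their values were seen. The classes, the limits of the rule and the gene lists were chosen with earlier results of these data known. Alternatives were other scalings, equal weight per cell, thinning to 3000 UMIs, other cell and gene filters, stricter purity, Scrublet-marked cells left out and, after seeing the data, mixed-hormone cells counted or cells with endothelial UMIs or of 1 heat shock range left out.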

Additional observations from a re-analysis of the deposited data

Results flagged for a closer look

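Hbb-bs, a haemoglobin chain of red blood cells, differed in opposite directions in alpha and delta cells. Alpha cells had 0 UMIs in control and 292 in IHG, a log2 ratio of at least 4.92 with the control set to 3 UMIs, and delta cells had 69 and 1 UMIs, a log2 ratio of -7.74. A single IHG alpha cell held 94.2% of the alpha UMIs and a single control delta cell 98.5% of the delta ones. The difference between the classes was not tested.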

How the results depend on the processing

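Each side is 1 library, so none of these settings adds a replicate. Of the counts and shares, 63 alternative values were close to those reported and 32 moved. Of the single genes' ratios, 2260 moved by less than counting error, 652 moved more and 24 changed direction. Causes were not tested beyond what each setting's construction shows.

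Median-of-ratios scaling gave 26 lower genes in beta, 159 higher in alpha, and 292 higher and 427 lower in delta cells. CPM without hormone and mitochondrially encoded genes gave 70 higher in beta, 359 higher in alpha, and 665 and 401 in delta cells. With no CPM minimum but 10 UMIs over both libraries, more genes enter: 988 and 1086 in beta, 941 and 1743 in alpha, 985 and 1904 in delta cells. With a minimum of 50 CPM fewer enter: 14 and 19, 25 and 233, and 36 and 281. Cells thinned to 3000 UMIs gave 173 higher genes in alpha and 328 in delta cells. At or above the heat shock limits there were 49 higher and 22 lower in beta, 155 lower in alpha and 365 lower in delta cells, and below the limit 75 and 108 in beta cells. The ratio of delta cell shares was 3.18 with 1000 genes or more per cell and 3.14 under stricter purity. With mixed-hormone cells counted, the ratio was 1.92 for alpha and 1.61 for delta cells.

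Most changes of direction came at or above the heat shock limits. There the log2 ratio in beta cells was -0.26 for Stmn1, -0.41 for AI480526, -0.13 for Msln, -0.10 for Fasn, 0.049 for Fosb, 0.034 for Egr1 and 0.13 for Dnajb1. In alpha cells it was 0.0075 for Per1, 0.033 for Hspe1, 0.11 for Stip1 and -0.15 for Ndufa4. In delta cells it was 0.21 for Fosl2, 0.059 for Junb, 0.040 for Btg2, 0.26 for Hspe1, 0.19 for Hspb1, 0.028 for Ahsa1, 0.23 for Stip1 and 0.60 for Hmox1. Of these, Dnajb1, Hspe1, Stip1, Hspb1 and Ahsa1 belong to the heat shock list that selected the cells, so their values follow partly from that selection. Without cells holding an endothelial UMI, Hba-a1 in delta cells was at 0.31, and in thinned cells Cish in delta cells at 0.22. In beta cells with 10 to 20% insulin, Nap1l5 was at 0.19 and Gad1 at -0.84, and with 40% or more Stmn1 was at -1.14.

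No paired analysis was possible because each side is 1 library and the labels give no replicate numbers. Depth limits the delta cells most, with 2051876 UMIs in control.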
